A study of Homo sapiens with 24 samples.

Results

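ATM, ATR, ATRIP, TOPBP1, CHEK1, CHEK2, PRKDC and WEE1 encode the kinases of the DNA damage checkpoints and the partners through which ATR is switched on. These 8 genes were taken by name from the 62754 genes of the transcript count table, where they have 169 of 252894 transcripts, and they have 306 of the 233113 introns in the intron retention tables. They were chosen with earlier results of these data known, so their shares beside those of all genes or introns are descriptive. The cells were RKO-dox-iCas9, a human colon carcinoma line with a doxycycline-inducible Cas9, sorted by FACS for the guide vector. In sgERH cells the guide cut ERH, and in sgAAVS1 cells, the control, it cut a safe-harbour site in AAVS1. All cells, controls included, received 100 ng/mL doxycycline for 5 days, so both arms carried an active Cas9 and a cut genome, and the share of edited cells in each culture was not analysed here. Cycloheximide (CHX, a translation inhibitor) at 25 µg/mL, or its vehicle DMSO, was given for 4 h, after which cytoplasm and nucleus were separated and polyadenylated RNA was sequenced. Each of the 8 groups (2 guides, 2 treatments, 2 fractions) had 3 biological replicates, 24 libraries in all, and p-values measure the spread between replicates. Cytoplasm and nucleus were separated from lysed cells, so the 24 libraries are not 24 separate cultures.

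ATR, a kinase of the PI3K-like family, is brought to single-stranded DNA at stalled replication forks by its partner ATRIP and is activated there by TOPBP1. ATR then phosphorylates CHEK1, which holds back the CDC25 phosphatases, while WEE1 places the inhibitory phosphate on the cyclin-dependent kinases directly. ATM responds to double-strand breaks and phosphorylates CHEK2, and PRKDC is the catalytic subunit of DNA-PK, which joins broken ends. RNA that keeps an intron is often held in the nucleus, and RNA with an early stop codon that reaches the cytoplasm is degraded by nonsense-mediated decay, which needs translation and is therefore blocked by CHX.

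Libraries held about 27849300 to 79450300 estimated counts. Of the markers of an epithelial colon line, KRT18 (63.0 to 226 counts per 1000000, CPM) and KRT8 (22.02 to 159 CPM) were high in all 24 libraries. CDX2 was at 1.59 to 19.2 CPM and EPCAM at 0.621 to 10.6 CPM, whereas CDH1, KRT19, VIL1 and KRT20 stayed below 1 CPM in every library. The leukocyte gene PTPRC and the stromal gene PDGFRB did not exceed 0.249 and 0.178 CPM, and COL1A1 reached 4.19 CPM. The T cell gene CD3E was at 0 in all 24 libraries, COL1A2 reached 0.150 CPM and DCN 0.863 CPM. Of the macrophage markers, CD68, a lysosomal protein gene that other cells also express, was at 59.1 to 393 CPM over the 24 libraries. In DMSO nuclei it was at 155 to 216 CPM in sgERH against 59.1 to 94.7 CPM in sgAAVS1. ITGAM stayed below 1 CPM except in CHX nuclei, where it reached 15.1 CPM in sgERH and 18.9 CPM in sgAAVS1. The part of these markers in the results was not tested. ERH itself had 72.9, 86.9 and 59.4 CPM in sgERH cytoplasm under DMSO, against 137, 158 and 152 CPM in sgAAVS1 cytoplasm, a 2.04-fold lower level (log2 fold change −1.03, SE 0.11, edgeR quasi-likelihood test with Benjamini-Hochberg adjusted p = 1.12e-06). The fold stayed under 1 on the log2 scale with sgERH replicate 3 left out (−0.90) or with control replicate 2 (−0.96) or 3 (−0.99) left out. The target was also lower in CHX cytoplasm (−0.72, edgeR adjusted p = 6.15e-05) and in DMSO nuclei (−0.48, edgeR adjusted p = 0.0267), but not beyond the spread of replicates in CHX nuclei (−0.12, edgeR adjusted p = 0.59). An edited gene can still give RNA, so its RNA level does not give the share of edited cells. The long RNAs MALAT1 and NEAT1, which normally stay in the nucleus, were higher in the cytoplasmic libraries of sgERH cells. Under DMSO, MALAT1 stood at 305 to 325 CPM in sgERH against 200 to 247 CPM in sgAAVS1, and NEAT1 at 240 to 275 CPM in sgERH against 111 to 139 CPM in sgAAVS1. Under CHX, MALAT1 stood at 290 to 328 CPM in sgERH against 190 to 233 CPM in sgAAVS1, and NEAT1 at 206 to 225 CPM in sgERH against 103 to 124 CPM in sgAAVS1. KCNQ1OT1, another nuclear RNA, stood at 4.90 to 5.65 CPM in sgERH cytoplasm against 1.35 to 2.05 CPM in sgAAVS1 under DMSO, and at 2.80 to 4.09 CPM in sgERH against 1.51 to 1.82 CPM in sgAAVS1 under CHX. Mitochondrial mRNA took 5.15% to 6.22% of counts in sgERH cytoplasm under DMSO and 3.29% to 3.78% in sgAAVS1. The part of these differences in the cytoplasmic results below was not tested.

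In the cytoplasm of DMSO-treated cells, loss of ERH went with lower counts of 7 of the 8 genes, and WEE1 was the exception. For ATM the lower level did not hold with an offset for mean transcript length (0.020, edgeR adjusted p = 0.937). ATR, TOPBP1 and PRKDC fell by more than 2-fold and were called lower (a call takes an adjusted p up to 0.05 and a log2 change of 1 or more in size), 3 of 8, where 2.16% of all 16130 genes tested were called lower. For 7 of 8 the adjusted p was at most 0.05 in the lower direction at any fold, against 28.7% of all genes, and in the same 7 all 3 sgERH libraries lay below all 3 sgAAVS1 libraries, against 30.4% of all genes. The median log2 fold change of the 8 genes was −0.79, against 0.04 over all genes. In bulk RNA, fewer cells with a transcript and less of it per cell cannot be told apart.

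**Figure D1:**
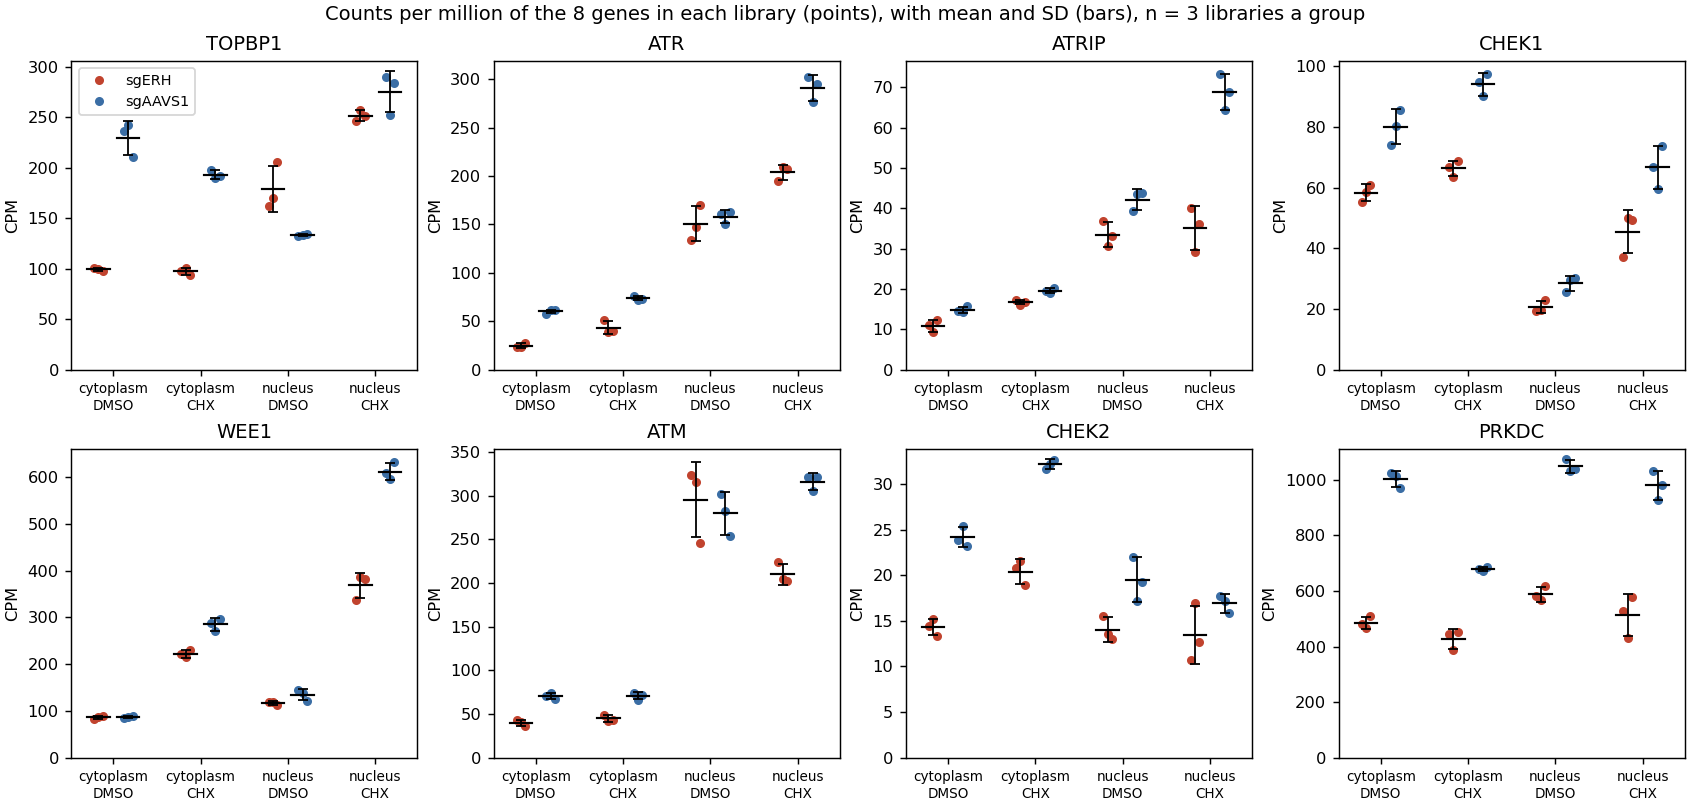
CPM (TMM-scaled within each fraction separately) of the 8 genes in each of the 24 libraries, 1 panel per gene, with points for libraries and bars for the mean ± SD of 3. In cytoplasm under DMSO, the 3 sgERH points of TOPBP1 sit at 98.2 to 101 CPM and the 3 sgAAVS1 points at 211 to 242 CPM, whereas in DMSO nuclei the sgERH points lie above the sgAAVS1 points.

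TOPBP1 (chromosome 3, 133598175 to 133662380, minus strand, GRCh38), the activator of ATR, fell in cytoplasm and rose in nuclei under DMSO. Its cytoplasmic DMSO libraries held 101, 99.4 and 98.2 CPM in sgERH, against 237, 242 and 211 CPM in sgAAVS1, a 2.31-fold lower level (log2 fold change −1.21, SE 0.06, edgeR adjusted p = 7.28e-11). Every sgERH library lay far below the lowest control. In DMSO nuclei the order was the reverse, 162, 171 and 205 CPM in sgERH against 133, 134 and 135 CPM in sgAAVS1 (0.42, SE 0.08, edgeR adjusted p = 0.000731). Among the 8 genes TOPBP1 alone had an adjusted p up to 0.05 in the higher direction in DMSO nuclei. The share of all genes with such a rise is not given here, so this sets TOPBP1 apart among the 8 genes only.

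ATR (chromosome 3, 142449007 to 142578733, minus strand) showed the largest cytoplasmic change of the 8 genes under DMSO. It had 23.1, 23.7 and 27.99 CPM in sgERH cytoplasm against 58.0, 61.5 and 61.2 CPM in sgAAVS1 cytoplasm, 2.42-fold lower (−1.27, SE 0.09, edgeR adjusted p = 1.15e-08). In DMSO nuclei the groups overlapped, with 135, 147 and 171 CPM in sgERH and 161, 150.3 and 163 CPM in sgAAVS1 (−0.07, SE 0.08, edgeR adjusted p = 0.56). The ATR-binding protein ATRIP (chromosome 3, 48446710 to 48467645, plus strand) moved less: 10.96, 9.35 and 12.4 CPM in sgERH cytoplasm against 14.7, 14.2 and 15.7 CPM in sgAAVS1 cytoplasm (−0.44, SE 0.09, edgeR adjusted p = 0.000455). The ATRIP locus overlaps TREX1, so reads in the shared stretch could be counted to either gene.

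PRKDC (chromosome 8, 47773111 to 47960178, minus strand) was the most abundant of the 8 by read count and fell in both fractions. Its DMSO cytoplasm held 480, 467 and 510.1 CPM in sgERH against 1026, 1014 and 970 CPM in sgAAVS1 (−1.05, SE 0.06, edgeR adjusted p = 5.13e-10). Its DMSO nuclei held 581, 567 and 619 CPM in sgERH against 1076, 1030.2 and 1041 CPM in sgAAVS1 (−0.83, SE 0.09, edgeR adjusted p = 1.22e-06). No library of either guide overlapped the other guide's range in either fraction. ATM (chromosome 11, 108223044 to 108369102, plus strand), the break-responsive kinase, had 42.96, 40.7 and 36.1 CPM in sgERH cytoplasm against 70.5, 74.7 and 67.0 CPM in sgAAVS1 cytoplasm (−0.82, SE 0.08, edgeR adjusted p = 1.41e-07). Its nuclear DMSO levels overlapped, at 324, 316 and 246 CPM in sgERH and 302, 283 and 254 CPM in sgAAVS1 (0.08, SE 0.09, edgeR adjusted p = 0.558). The ATM fold change depended on which transcripts the reads were given to: with an offset for mean transcript length the cytoplasmic value under DMSO was 0.020 (edgeR adjusted p = 0.937), of opposite sign, and under CHX 0.30 (edgeR adjusted p = 0.188). The same offset left PRKDC at −0.97 and below the fold needed for a call.

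The effector kinases CHEK1, CHEK2 and WEE1 were not called in DMSO cytoplasm, though CHEK2 fell by more than ATRIP (−0.44). CHEK1 (chromosome 11, 125625163 to 125676255, plus strand) had 55.4, 58.7 and 60.9 CPM in sgERH cytoplasm against 74.1, 80.3 and 85.7 CPM in sgAAVS1 cytoplasm (−0.46, SE 0.06, edgeR adjusted p = 8.91e-06), and it fell by the same log2 amount in DMSO nuclei (−0.46, SE 0.12, edgeR adjusted p = 0.00654). CHEK2 (chromosome 22, 28687743 to 28742422, minus strand) had 14.5, 15.2 and 13.4 CPM in sgERH cytoplasm against 23.9, 25.4 and 23.2 CPM in sgAAVS1 cytoplasm (−0.76, SE 0.07, edgeR adjusted p = 1.73e-07). CHEK2 has near-identical pseudogene copies, so its counts are uncertain where reads could be shared with them. WEE1 (chromosome 11, 9573670 to 9593457, plus strand) had overlapping cytoplasmic groups under DMSO, 82.1, 87.2 and 89.2 CPM in sgERH and 85.6, 87.7 and 88.7 CPM in sgAAVS1 (−0.02, SE 0.05, edgeR adjusted p = 0.774).

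In DMSO nuclei none of the 8 genes was called by edgeR or by DESeq2, against 1.73% of all 17330 genes called lower. By edgeR 6 of the 8 had an unadjusted p under 0.05. The share of all genes or introns at an unadjusted p is not given, so such counts, here and below, stand without a background. After adjustment 5 were lower at any fold (PRKDC, CHEK2, CHEK1, ATRIP and WEE1), against 18.2% of all genes. The median of the 8 was −0.27. The nuclear values thus fell into lower, higher and overlapping genes.

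The difference between the fractions was tested directly, as the sgERH effect in the nucleus minus that in the cytoplasm. The fit entered nuclear and cytoplasmic libraries as independent and did not pair those of the same guide and number. Under DMSO it was 1.65 for TOPBP1 (SE 0.11, edgeR adjusted p = 1.4e-08) and 1.22 for ATR (SE 0.12, edgeR adjusted p = 1.32e-06), and both passed the call, 2 of 8 against 1.78% of all genes called higher. ATM followed at 0.92 (SE 0.14, edgeR adjusted p = 5.57e-05), and passed the fold only when sgERH nucleus DMSO replicate 3 was left out (1.03). PRKDC, the gene that fell in both fractions, differed by 0.23 (SE 0.08, edgeR adjusted p = 0.0292). For CHEK1, CHEK2, ATRIP and WEE1 the adjusted p was over 0.05.

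**Figure D2:**
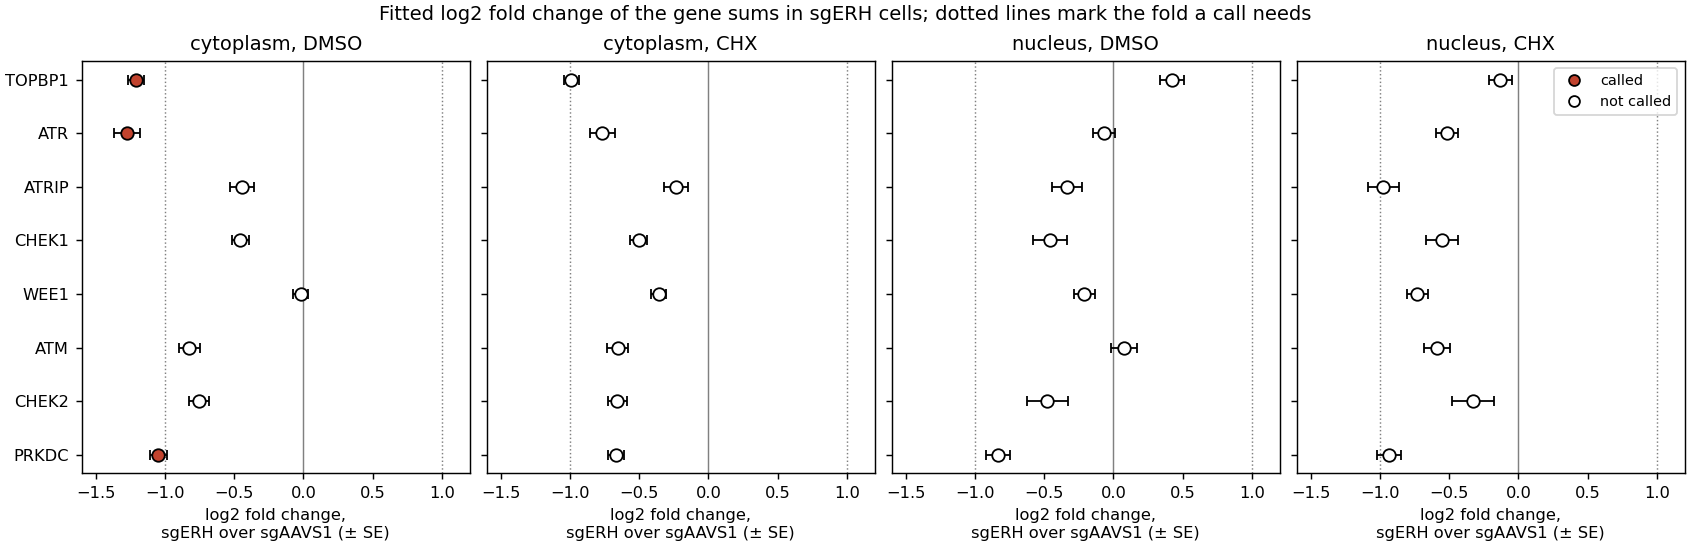
Log2 fold change of sgERH over sgAAVS1 (± SE, edgeR) of the 8 genes in the 4 comparisons of fraction and treatment, with filled symbols for calls and dotted lines at −1 and 1. Filled symbols are ATR (−1.27), TOPBP1 (−1.21) and PRKDC (−1.05) in DMSO cytoplasm, and TOPBP1 in DMSO nuclei (0.42) lies on the other side of 0.

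Inhibition of translation left the cytoplasmic direction of the counts as it was, though with the length offset ATM was not lower (0.30, edgeR adjusted p = 0.188). In CHX cytoplasm all 8 genes had an adjusted p up to 0.05 and were lower in sgERH, against 24.7% of all genes, and in all 8 the sgERH libraries lay below the controls, against 29.1% of all genes. None reached the fold needed for a call in edgeR or DESeq2 (all 8 had an unadjusted p under 0.05), while 1.43% of all genes did in the lower direction, and the median was −0.66. TOPBP1 came closest, with 97.9, 100.4 and 93.5 CPM in sgERH against 198, 189.5 and 192 CPM in sgAAVS1 (−0.99, SE 0.06, edgeR adjusted p = 1.28e-09), and it passed without sgAAVS1 replicate 2 (−1.003) or sgERH replicate 2 (−1.01). ATR had 51.2, 38.6 and 40.1 CPM in sgERH against 76.2, 72.4 and 72.6 CPM in sgAAVS1 (−0.76, SE 0.09, edgeR adjusted p = 3.44e-06), and ATRIP changed least (−0.23, SE 0.09, edgeR adjusted p = 0.0345).

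In CHX nuclei 6 of the 8 genes were lower at an adjusted p up to 0.05, against 23.1% of all genes, with 6 wholly below the controls, against 27.1% of all genes. No member passed the fold in edgeR or DESeq2, 7 had an unadjusted p under 0.05, and 3.68% of all genes were called lower. ATRIP was nearest to the call, at 40.1, 29.2 and 36.1 CPM in sgERH against 73.3, 64.5 and 69.0 CPM in sgAAVS1 (−0.97, SE 0.11, edgeR adjusted p = 1.46e-06), and it passed without sgAAVS1 replicate 2 (−1.02) or sgERH replicate 1 (−1.08). PRKDC had 527, 431 and 579.8 CPM in sgERH against 1033, 929 and 981 CPM in sgAAVS1 (−0.94, SE 0.09, edgeR adjusted p = 2.35e-07), and passed without sgERH replicate 3 (−1.03). TOPBP1, higher under DMSO, overlapped under CHX with 246, 257 and 252 CPM in sgERH and 289.6, 252 and 284 CPM in sgAAVS1 (−0.13, SE 0.08, edgeR adjusted p = 0.225). Under CHX the fraction difference was 0.95 for TOPBP1 (SE 0.10, edgeR adjusted p = 5.44e-06), short of the fold needed, as was that of each other member in edgeR and DESeq2 (3 had an unadjusted p under 0.05 upward and 2 downward), where 3.43% of all genes were called higher.

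CHX by itself raised WEE1, a kinase whose level is normally kept low by rapid turnover of its protein. In sgAAVS1 cytoplasm WEE1 was 288, 270.0 and 298 CPM with CHX against 85.6, 87.7 and 88.7 CPM with DMSO (3.27-fold, log2 1.71, SE 0.05, edgeR adjusted p = 1e-13), and it was 1 of 8 called higher there, against 13.6% of all genes. In sgAAVS1 nuclei it was 608, 596 and 632 CPM with CHX against 145, 138 and 122 CPM with DMSO (4.54-fold, 2.18, SE 0.08, edgeR adjusted p = 3.12e-13). CHEK1 (2.34-fold, 1.23, edgeR adjusted p = 8.45e-08) and TOPBP1 (2.06-fold, 1.04, edgeR adjusted p = 7.3e-09) also rose in nuclei, so 3 of 8 were called higher there, against 14.4% of all genes. PRKDC had a lower level with CHX in sgAAVS1 cytoplasm (−0.56, SE 0.06, edgeR adjusted p = 2.25e-07).

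WEE1 did not pass the test in DMSO cytoplasm (−0.02) and was lower in DMSO nuclei (−0.21, edgeR adjusted p = 0.0397), and it was lower in both fractions under CHX. It had 221, 215 and 231 CPM in sgERH against 288, 270.0 and 298 CPM in sgAAVS1 in CHX cytoplasm (−0.36, SE 0.05, edgeR adjusted p = 2.39e-05). In CHX nuclei it had 338, 387 and 382 CPM in sgERH against 608, 596 and 632 CPM in sgAAVS1 (−0.73, SE 0.08, edgeR adjusted p = 7.17e-07). The change of the sgERH effect with CHX was tested as a difference of differences, where a negative value means a lower sgERH effect under CHX than under DMSO. In the cytoplasm it was −0.34 for WEE1 (edgeR adjusted p = 0.00283), and it was positive for ATR (0.51, adjusted p = 0.00879), PRKDC (0.38, adjusted p = 0.00256) and TOPBP1 (0.22, adjusted p = 0.0473). In nuclei it was negative for ATM (−0.67, adjusted p = 0.00198), ATRIP (−0.64, adjusted p = 0.00676), TOPBP1 (−0.55, adjusted p = 0.00319), WEE1 (−0.52, adjusted p = 0.00261) and ATR (−0.45, adjusted p = 0.0112), all by edgeR. None of these reached the fold of a call in edgeR or DESeq2 (4 members in cytoplasm and 5 in nuclei had an unadjusted p under 0.05), where 3.63% of all genes in cytoplasm and 3.62% in nuclei were called in either direction. Those shares are for calls. The share of all genes with an adjusted p up to 0.05 at any fold is not given for this difference.

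Levels between the genes were compared per length, in TPM, transcripts per 1000000. In DMSO cytoplasm PRKDC was highest with 77.5 ± 7.3 TPM in sgERH and 129 ± 4.1 TPM in sgAAVS1 (SD, n = 3 each). ATM, lower in counts, had 19.4 ± 5.3 TPM in sgERH and 16.3 ± 0.17 TPM in sgAAVS1, with overlapping ranges. ATR and ATRIP were lowest. ATR had 4.52 TPM in sgERH and 8.45 TPM in sgAAVS1, and ATRIP 5.92 TPM in sgERH and 7.09 TPM in sgAAVS1, so the lowest place went to ATR in sgERH cells, where the ranges of the pair overlapped, and to ATRIP in control cells, where they did not. With CHX, WEE1 took the highest place in cytoplasm (128 ± 9.1 TPM in sgERH, 154 ± 9.3 TPM in sgAAVS1) and in nuclei (330 ± 31 TPM in sgERH, 483 ± 6.9 TPM in sgAAVS1). In DMSO nuclei PRKDC led at 215 ± 16 TPM in sgERH and 362 ± 21 TPM in sgAAVS1, and CHEK1 had the lowest mean, 18.2 TPM in sgERH and 24.3 TPM in sgAAVS1, where its range overlapped that of ATRIP (24.6 TPM).

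The annotated transcripts of each gene were tested for their level. Of the 83 transcripts of the 8 genes tested in cytoplasm, 6 (7.23%) were called under DMSO, each lower in sgERH, against 5.88% of all transcripts called in either direction, and 4 (4.82%) under CHX, each lower, against 2.95%. Of the 107 tested in nuclei, 10 (9.35%) were called under DMSO, 8 higher and 2 lower, against 2.88% of all transcripts, and 9 (8.41%) under CHX, 2 higher and 7 lower, against 6.07%. The differences in count were not tested. Shares of a gene's TPM carry no test here and rest on how the estimation divided reads between overlapping transcripts, so a transcript stands here for the exons that only it has.

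ATR-201, the canonical protein-coding ATR transcript, made up 36.6%, 37.8% and 59.8% of ATR in sgERH cytoplasm under DMSO, against 68.7%, 67.4% and 62.7% in sgAAVS1. Its level fell (−1.68, SE 0.22, edgeR adjusted p = 0.000602), and it fell under CHX too (−1.22, SE 0.22, edgeR adjusted p = 0.00542). In DMSO nuclei ATR-201 was listed at 0 in all 3 sgERH libraries and at 4.65%, 3.95% and 1.18% of ATR in sgAAVS1. The summed share of both protein-coding transcripts overlapped there, at 5.77%, 4.86% and 3.77% in sgERH against 4.65%, 3.95% and 3.72% in sgAAVS1, and in sgERH all of it was assigned to ATR-219 (2.70, SE 1.6, edgeR adjusted p = 0.42). The transcript ATR-221, which keeps introns 38 and 39, took 20.2%, 18.6% and 20.3% of nuclear ATR in sgERH under DMSO, against 1.35%, 3.38% and 2.69% in sgAAVS1 (3.26, SE 0.28, edgeR adjusted p = 0.000217). ATR-205, which keeps intron 46, went the other way, with 7.53% ± 1.3 in sgERH against 28.2% ± 0.30 in sgAAVS1 (SD, n = 3 each; −1.67, SE 0.14, edgeR adjusted p = 0.000169).

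TOPBP1-206, an 811-base RNA that keeps intron 9, took 21.4%, 21.8% and 27.3% of nuclear TOPBP1 in sgERH under DMSO, against 1.93%, 6.01% and 6.3% in sgAAVS1 (3.02, SE 0.47, edgeR adjusted p = 0.00406). The sgERH libraries lay at more than 3 times the highest control. The full-length coding transcript TOPBP1-201 had a mean share of 63.5% in sgERH and 66.0% in sgAAVS1 in DMSO cytoplasm, and its level fell (−1.14, SE 0.07, edgeR adjusted p = 4.89e-06). The share of ATM-229, the canonical ATM transcript, was 9.61%, 8.95% and 14.7% in sgERH cytoplasm under DMSO, against 20.8%, 24.5% and 21.8% in sgAAVS1 (−1.06, SE 0.09, edgeR adjusted p = 3.04e-05). The 442-base ATM-246, which holds only the first 3 junctions of the gene, had 49.5%, 44.3% and 31.9% in sgERH against 17.1%, 12.6% and 25.6% in sgAAVS1, a difference in level that did not pass (1.40, edgeR adjusted p = 0.0871). WEE1-210, a coding transcript without the first canonical junction, had 27.2%, 29.9% and 29.4% of nuclear WEE1 in sgERH under DMSO, against 9.41%, 10.1% and 16.8% in sgAAVS1 (1.17, SE 0.14, edgeR adjusted p = 0.00125). ATRIP-201, the canonical ATRIP transcript, stood at 32.8% ± 3.0 of nuclear ATRIP in sgERH under CHX against 52.6% ± 1.1 in sgAAVS1 (SD, n = 3 each; −1.42, SE 0.10, edgeR adjusted p = 3.88e-05).

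**Figure D3:**
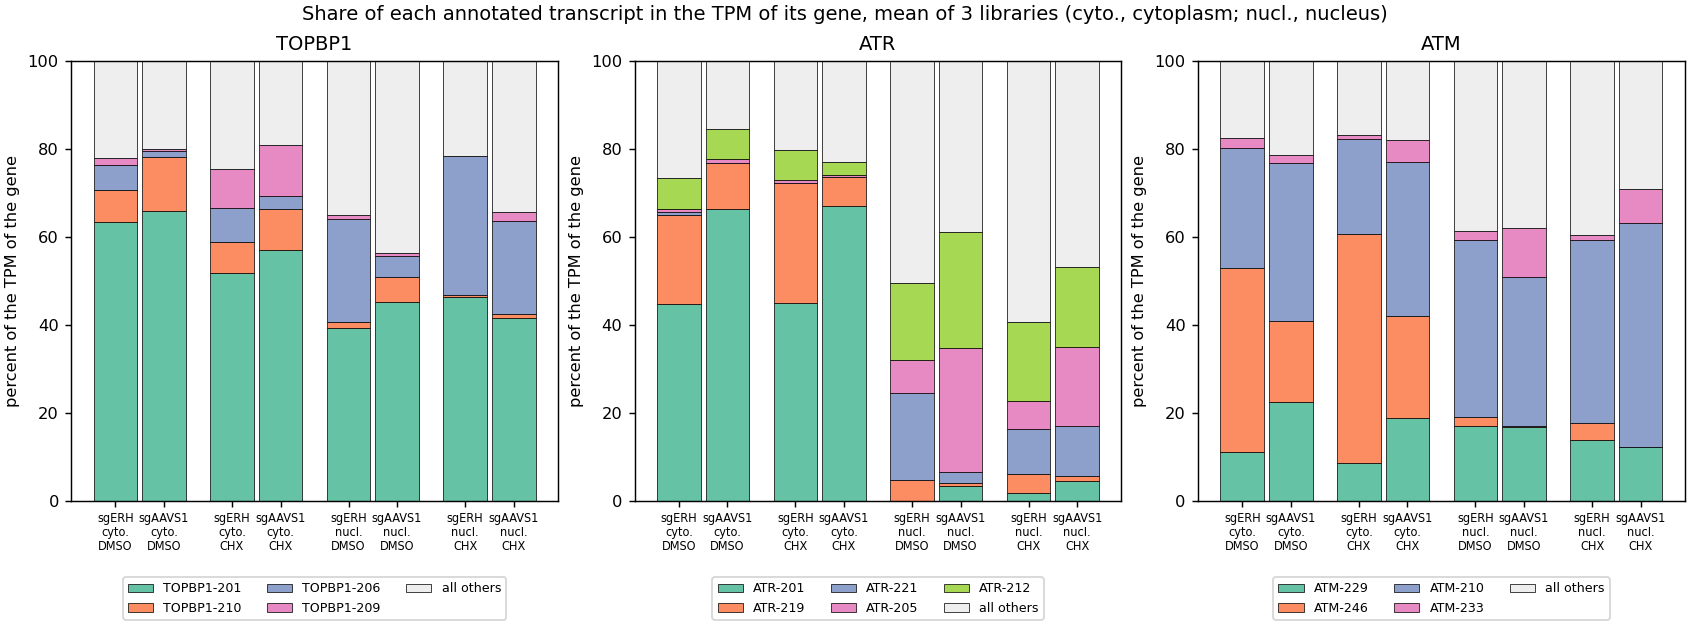
Mean percent of the TPM of TOPBP1, ATR and ATM given to each annotated transcript, as stacked bars for the 8 groups (3 libraries each). In DMSO nuclei ATR-221 takes 19.7% of ATR in sgERH and 2.48% in sgAAVS1, and TOPBP1-206 takes 23.5% of TOPBP1 in sgERH and 4.75% in sgAAVS1.

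Retention was measured by the IR ratio, the mean read depth over an intron divided by that depth plus the reads spliced across it, so 0 means always spliced and values near 1 mean mostly unspliced. Introns are numbered from the 5′ end of the canonical transcript, and an intron was called when its depth changed against its spliced reads under the limits used for genes. In addition, the more retained group had to average an IR ratio of 0.05 or more. In DMSO nuclei 25 of 289 tested introns of the 8 genes were more retained in sgERH, 8.65% against 1.18% of all 127790 introns tested, and 9 (3.11%) were less retained, against 3.34% of all introns. DESeq2 gave 18 more and 8 less retained among the same introns. By edgeR, the more retained introns lay in ATM (11 of 65 tested), TOPBP1 (7 of 28), ATR (5 of 40) and PRKDC (2 of 85), and the less retained ones in TOPBP1 (7), ATR (1) and ATRIP (1). The more retained counts include alternative forms, which can share reads with a numbered intron, and the numbered ones were 10 in ATM and 6 in TOPBP1. The 15 introns of CHEK1, 32 of CHEK2 and 10 of WEE1 held no call. Over all nuclear introns the log2 value was shifted by a median of −0.37 under DMSO and −0.94 under CHX, and after centring on that median, an alternative chosen after seeing the data, the members' counts were 29 more and 3 less retained.

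The splice sites of 5 called introns, 4 more and 1 less retained in sgERH nuclei, and the whole of the shortest called intron of TOPBP1 are printed from GRCh38, to show the sites that the IR ratios below concern. Each is 5′ to 3′ on the gene's strand. In the 5′ sites capitals mark the last 3 exon and first 6 intron bases, in the 3′ sites the last 2 intron bases, and in the whole intron its first 6 and last 2 bases. TOPBP1 and ATR lie on the minus strand, ATM on the plus strand.
TOPBP1 intron 5, 5′ site, chr3:133656656-133656678: GAAGTAAGAaagacatttttata
TOPBP1 intron 5, 3′ site, chr3:133655484-133655513: tcttttttaaccatttgattcccacAGaaa
ATR intron 37, 5′ site, chr3:142470066-142470088: AAGGTATAActcttcacgtaaaa
ATR intron 37, 3′ site, chr3:142469567-142469596: gttttttaaacttatttcttcccccAGctg
ATR intron 46, 5′ site, chr3:142453108-142453130: AAGGTTAGTagaaggtatagctt
ATR intron 46, 3′ site, chr3:142449600-142449629: ttttggttttatgtttcttctttttAGgcc
ATM intron 9, 5′ site, chr11:108249100-108249122: TTGGTAAAGtgttaccattttct
ATM intron 9, 3′ site, chr11:108250674-108250703: caaattatcctttttttttttttttAGgct
ATM intron 11, 5′ site, chr11:108252029-108252051: CAGGTAATTtaagttcattagca
ATM intron 11, 3′ site, chr11:108252790-108252819: agtgaagctttttgtttttctttgtAGtaa
TOPBP1 intron 9, whole, chr3:133649634-133649779: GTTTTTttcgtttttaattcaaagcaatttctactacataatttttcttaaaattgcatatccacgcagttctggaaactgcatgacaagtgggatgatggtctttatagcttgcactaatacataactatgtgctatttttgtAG

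The capitals of each 5′ site were set against the 9-letter consensus CAGGTAAGT, on the gene's strand only. ATR intron 37 and ATM intron 9 matched at 5 of 9 letters, TOPBP1 introns 5 and 9 at 6, ATR intron 46 at 7 and ATM intron 11 at 8. Among all nuclear introns tested, 97.4% matched at 5 or more letters, 80.8% at 6 or more, 42.7% at 7 or more and 10.6% at 8 or more. The called introns therefore included sites both in the lowest and in the highest ranges of match. The 23 more retained nuclear introns outside PRKDC had a median length of 1268 bases and a median GC content of 31.8%, the 9 less retained ones 2041 bases and 36.2%, and the 172 introns without a call 1613.5 bases and 37.3%. Over all introns tested the median GC content was 35.5% in those more retained and 44.1% in those without a call.

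ATR intron 37 (chromosome 3, 142469570 to 142470085, 516 bases) showed the largest change among the called nuclear introns of the 8 genes under DMSO. Its IR ratio was 0.784, 0.791 and 0.747 in sgERH nuclei against 0.0535, 0.0413 and 0.0487 in sgAAVS1 nuclei (6.04, SE 0.28, edgeR adjusted p = 3.18e-08). The underlying depth, a coverage signal, was 138, 163 and 227 in sgERH against 10.1, 7.07 and 11.5 in sgAAVS1. Spliced reads numbered 38, 43 and 77 in sgERH against 178, 164 and 225 in sgAAVS1. Both terms of the ratio thus moved. The downstream neighbour, intron 38, had IR ratios of 0.388, 0.511 and 0.450 in sgERH against 0.0358, 0.0543 and 0.0430 in sgAAVS1 (4.11, SE 0.34, edgeR adjusted p = 4.83e-06), and introns 36 (2.06) and 39 (1.76) were called too, so the run of 36 to 39 was called whole. Further upstream, intron 14 was called (2.63, edgeR adjusted p = 0.0344).

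ATR intron 46, the last of the gene, went in the opposite direction. Its IR ratio was 0.0768, 0.0459 and 0.0694 in sgERH nuclei under DMSO against 0.229, 0.269 and 0.271 in sgAAVS1 nuclei (−2.36, SE 0.27, edgeR adjusted p = 8.08e-05), and it was also less retained under CHX (0.0335 in sgERH, 0.132 in sgAAVS1; −2.20, edgeR adjusted p = 6.67e-05). ATR intron 3 held no call in DMSO nuclei, at 0.277 ± 0.054 in sgERH and 0.225 ± 0.12 in sgAAVS1 (SD, n = 3 each). In cytoplasm it was called under DMSO, at 0.183, 0.173 and 0.17 in sgERH against 0.00780, 0.0141 and 0.0380 in sgAAVS1 (3.31, SE 0.62, edgeR adjusted p = 0.00592). Intron 37 was called under CHX, at 0.0855, 0.0526 and 0.0705 in sgERH and 0 in all 3 sgAAVS1 libraries (edgeR adjusted p = 0.0152), a call lost without sgAAVS1 replicate 3 (adjusted p = 0.0542) or sgERH replicate 1 (0.0921). Intron 37 in DMSO cytoplasm, at 0.0269, 0.00199 and 0.106 in sgERH against 0, 0 and 0.000147 in sgAAVS1, did not pass (edgeR adjusted p = 0.0661), and passed only without sgERH replicate 2 (0.0496).

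In TOPBP1 the called introns formed 2 blocks. Introns 4 to 9 were all more retained in sgERH nuclei under DMSO (log2 values 2.25 to 5.16), and introns 10, 16, 20 to 23 and 25, further downstream, were less retained. After centring on the median of all introns, TOPBP1 had 2 less retained introns in place of 7. Intron 5 had IR ratios of 0.360, 0.304 and 0.446 in sgERH against 0.00400, 0.0219 and 0.0184 in sgAAVS1 (5.16, SE 0.68, edgeR adjusted p = 0.000294). Intron 8 had 0.304, 0.411 and 0.479 in sgERH against 0.0394, 0.0372 and 0.0312 in sgAAVS1 (4.17, SE 0.38, edgeR adjusted p = 1.24e-05). The 146-base intron 9, which is the intron kept by TOPBP1-206 and was chosen after its values were seen, had 0.599, 0.537 and 0.578 in sgERH against 0.124, 0.182 and 0.185 in sgAAVS1 (2.76, SE 0.26, edgeR adjusted p = 1.38e-05). Every sgERH library exceeded every control at each of these introns. At intron 21, the most retained TOPBP1 intron of control nuclei, the order was reversed, with 0.211, 0.202 and 0.186 in sgERH against 0.516, 0.411 and 0.567 in sgAAVS1 (−1.99, SE 0.27, edgeR adjusted p = 0.000341).

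TOPBP1 was also the gene with the most retention calls in cytoplasm. In all, 8 of 97 tested introns (8.25%) of the 8 genes were more retained in sgERH cytoplasm under DMSO, against 1.36% of all 52496 introns, 5 in TOPBP1, 2 in ATM and 1 in ATR. Under CHX they were 7 (7.22%), against 0.551%, 6 in TOPBP1 and 1 in ATR. DESeq2 gave 8 under DMSO and 4 under CHX. The edgeR counts of 5 and 6 in TOPBP1 include an alternative form, and its numbered introns called were 4 under DMSO and 5 under CHX. No member intron was called less retained in cytoplasm by edgeR or DESeq2 (0 under DMSO and 2 under CHX had an unadjusted p under 0.05 in that direction), where 0.364% of all introns were under DMSO and 0.270% under CHX. TOPBP1 intron 5 had IR ratios of 0.131, 0.132 and 0.217 in sgERH cytoplasm under DMSO against 0.000290, 0.00138 and 0.00526 in sgAAVS1 (6.25, SE 0.54, edgeR adjusted p = 1.71e-05). Under CHX it had 0.232, 0.203 and 0.305 in sgERH against 0.0355, 0.0232 and 0.0402 in sgAAVS1 (3.19, SE 0.32, edgeR adjusted p = 0.000113). The sgERH depth (coverage) behind the DMSO values was 38.3, 27.4 and 52.9, against 0.169, 1.03 and 2.50 in sgAAVS1. The cytoplasmic libraries of sgERH also held more MALAT1, NEAT1 and KCNQ1OT1 (above), and the part of nuclear RNA in these IR ratios was not tested.

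In ATM 10 numbered introns were more retained in sgERH nuclei under DMSO, introns 8 to 11, 15, 16, 29 to 31 and 51, with log2 values of 1.83 to 5.77. Intron 9 had IR ratios of 0.203, 0.302 and 0.483 in sgERH against 0.00630, 0.0287 and 0.0309 in sgAAVS1 (4.85, SE 0.88, edgeR adjusted p = 0.00353). Intron 10 had 0.259, 0.333 and 0.280 in sgERH against 0.0560, 0.0196 and 0.0322 in sgAAVS1 (3.54, SE 0.69, edgeR adjusted p = 0.00604). Intron 11 had 0.122, 0.184 and 0.139 in sgERH against 0, 0.00410 and 0 in sgAAVS1 (5.77, SE 1.30, edgeR adjusted p = 0.0169). The groups did not overlap at any of the 3, though the call on intron 11 was lost without sgAAVS1 replicate 1 (adjusted p = 0.0578) or replicate 2 (0.0807). In DMSO cytoplasm intron 9 was at 0.0518, 0.178 and 0.200 in sgERH and at 0 in all sgAAVS1 libraries (edgeR adjusted p = 0.022), a call that held in 7 of 12 alternatives and was lost without sgAAVS1 replicate 1 (0.0614) or 2 (0.0688) or sgERH replicate 2 (0.0656) or 3 (0.0957). Intron 10 stood at 0.157, 0 and 0.0828 in sgERH and at 0 in all sgAAVS1 libraries, a call that held in 3 of 13 and, of the fits without 1 library, only in that without sgERH replicate 2. These rest on 41, 9 and 12 spliced reads over intron 9 in sgERH, against 66, 86 and 42 in sgAAVS1. ATM overlaps other genes on chromosome 11, and whether the strand was used in counting transcripts is not stated.

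In PRKDC, the longest coding sequence of the 8, intron 29 (IR ratio 0.208 ± 0.043 in sgERH and 0.0717 ± 0.012 in sgAAVS1, SD, n = 3 each; 1.76, SE 0.33, edgeR adjusted p = 0.00418) and intron 76 (0.0850 in sgERH, 0.0319 in sgAAVS1; 1.496, SE 0.25, edgeR adjusted p = 0.00191) were more retained in DMSO nuclei. ATRIP intron 12 was less retained, at 0.314 ± 0.028 in sgERH and 0.515 ± 0.050 in sgAAVS1 (SD, n = 3 each; −1.21, SE 0.26, edgeR adjusted p = 0.0111). The call on ATRIP intron 12 held in 8 of 13 alternatives. It was lost when sgERH replicate 3 (−1.11) or control replicate 2 (−1.08) or 3 (−1.17) was left out, at edgeR adjusted p from 0.0565 to 0.0576. After centring on the median of all introns it was lost too, with 0 less retained introns in ATRIP.

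In CHX nuclei 23 introns of the 8 genes (7.96%) were more retained in sgERH, against 0.736% of all introns, and 16 (5.54%) less retained, against 19.3% of all introns. After centring these counts were 40 and 4. DESeq2 gave 19 and 14 without centring. The effectors had 3 of 15 tested introns of CHEK1, 3 of 32 of CHEK2 and 2 of 10 of WEE1 called less retained, a share that is read against the same 19.3%. Like the 23 and 16 above, these counts include alternative forms, which can share reads with a numbered intron. The numbered introns among them were 1 in CHEK1, 2 in CHEK2 and 1 in WEE1. After centring, the 2 WEE1 calls were left and 0 in CHEK1 and CHEK2, and each of the 3 CHEK1 calls was lost without at least 1 single library (edgeR adjusted p of 0.0559 to 0.101 in those cases). WEE1 intron 5 had IR ratios of 0.282, 0.164 and 0.239 in sgERH against 0.530, 0.565 and 0.534 in sgAAVS1 (−2.03, SE 0.26, edgeR adjusted p = 9.91e-05), and CHEK2 intron 10 had 0.406, 0.198 and 0.225 in sgERH against 0.470, 0.597 and 0.593 in sgAAVS1 (−1.80). ATRIP intron 12 stood at 0.4997, 0.468 and 0.560 in sgERH against 0.837, 0.862 and 0.868 in sgAAVS1 (−2.51, edgeR adjusted p = 2.66e-05). Reads across exon-intron boundaries, over the whole library, numbered 11.3 to 12.6 per 100 spliced reads in sgERH nuclei under CHX against 17.7 to 18.3 in sgAAVS1, and 14.9 in sgERH under DMSO against 17.9 to 18.7 in sgAAVS1. That library-wide difference has the direction of the less retained calls, and its part in them was not tested.

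At part of these introns the control nuclei had higher IR ratios under CHX, so the guides lay closer together. The IR ratio of ATR intron 37 was 0.703, 0.672 and 0.753 in sgERH against 0.526, 0.493 and 0.445 in sgAAVS1 under CHX (1.35, SE 0.23, edgeR adjusted p = 0.000689), where it had been 0.774 ± 0.024 in sgERH and 0.0478 ± 0.0061 in sgAAVS1 under DMSO (SD, n = 3 each). The change of the sgERH effect with CHX was −4.69 for ATR intron 37 (SE 0.37, edgeR adjusted p = 7.44e-05), −3.59 for intron 38 (SE 0.44, edgeR adjusted p = 0.00291) and −2.24 for intron 36. In TOPBP1 it was −3.31 for intron 8 (SE 0.49, edgeR adjusted p = 0.0108, and 0.0583 without sgAAVS1 DMSO replicate 2) and −1.99 for intron 7, whose alternative form shares the same reads and gave the same value. These 6 listed introns were the members called, all lower, against 0.304% of all nuclear introns, and over all nuclear introns the median of this difference was −0.59. After centring on that median, 2 of the ATR calls were left (introns 37 and 38) and 0 of those in TOPBP1. In cytoplasm no member intron was called in edgeR or DESeq2 (11 of 97 had an unadjusted p under 0.05), against 0.00762% of all introns called lower. At TOPBP1 intron 5 both conditions gave a call in nuclei, with 0.608, 0.402 and 0.692 in sgERH against 0.144, 0.116 and 0.233 in sgAAVS1 under CHX (2.75, SE 0.46, edgeR adjusted p = 0.000678). ATM intron 11 was called under both as well, with 0.422, 0.459 and 0.284 in sgERH against 0.00191, 0.102 and 0.0519 in sgAAVS1 under CHX (3.64, edgeR adjusted p = 0.00308).

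Spliced reads at each junction were then followed along the genes, scaled to the spliced reads of the library (reads per 1000000). The blocks below were chosen after the values were seen and carry no test. In DMSO nuclei TOPBP1 junctions 1 to 9 had a mean of 2.15, 2.20 and 2.21 reads per 1000000 in sgERH against 3.42, 3.22 and 3.44 in sgAAVS1, lower at 9 of 9 junctions. Junctions 10 to 27 had 12.2, 12.9 and 15.6 in sgERH against 8.86, 8.57 and 8.95 in sgAAVS1, higher at 18 of 18. The turn between the blocks lay after the run of retained introns 4 to 9. In cytoplasm all 27 TOPBP1 junctions were lower in sgERH under DMSO (medians of the log2 ratios −1.004 for junctions 1 to 9 and −0.86 for 10 to 27). In ATR, junctions 1 to 28 were mixed in DMSO nuclei, with 22 lower and 6 higher in sgERH (median log2 ratio −0.29, highest 0.47). Its junctions 29 to 38 had 1.47, 1.58 and 2.69 in sgERH nuclei under DMSO against 4.12, 3.63 and 4.58 in sgAAVS1, lower at 10 of 10, and its junctions 39 to 46 had 11.4, 13.2 and 14.1 in sgERH against 9.18, 8.38 and 8.30 in sgAAVS1, higher at all 7 listed. Under CHX the 3′ block of nuclear TOPBP1 was above the control at 8 of 18 junctions, and that of ATR at 1 of 7.

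**Figure D4:**
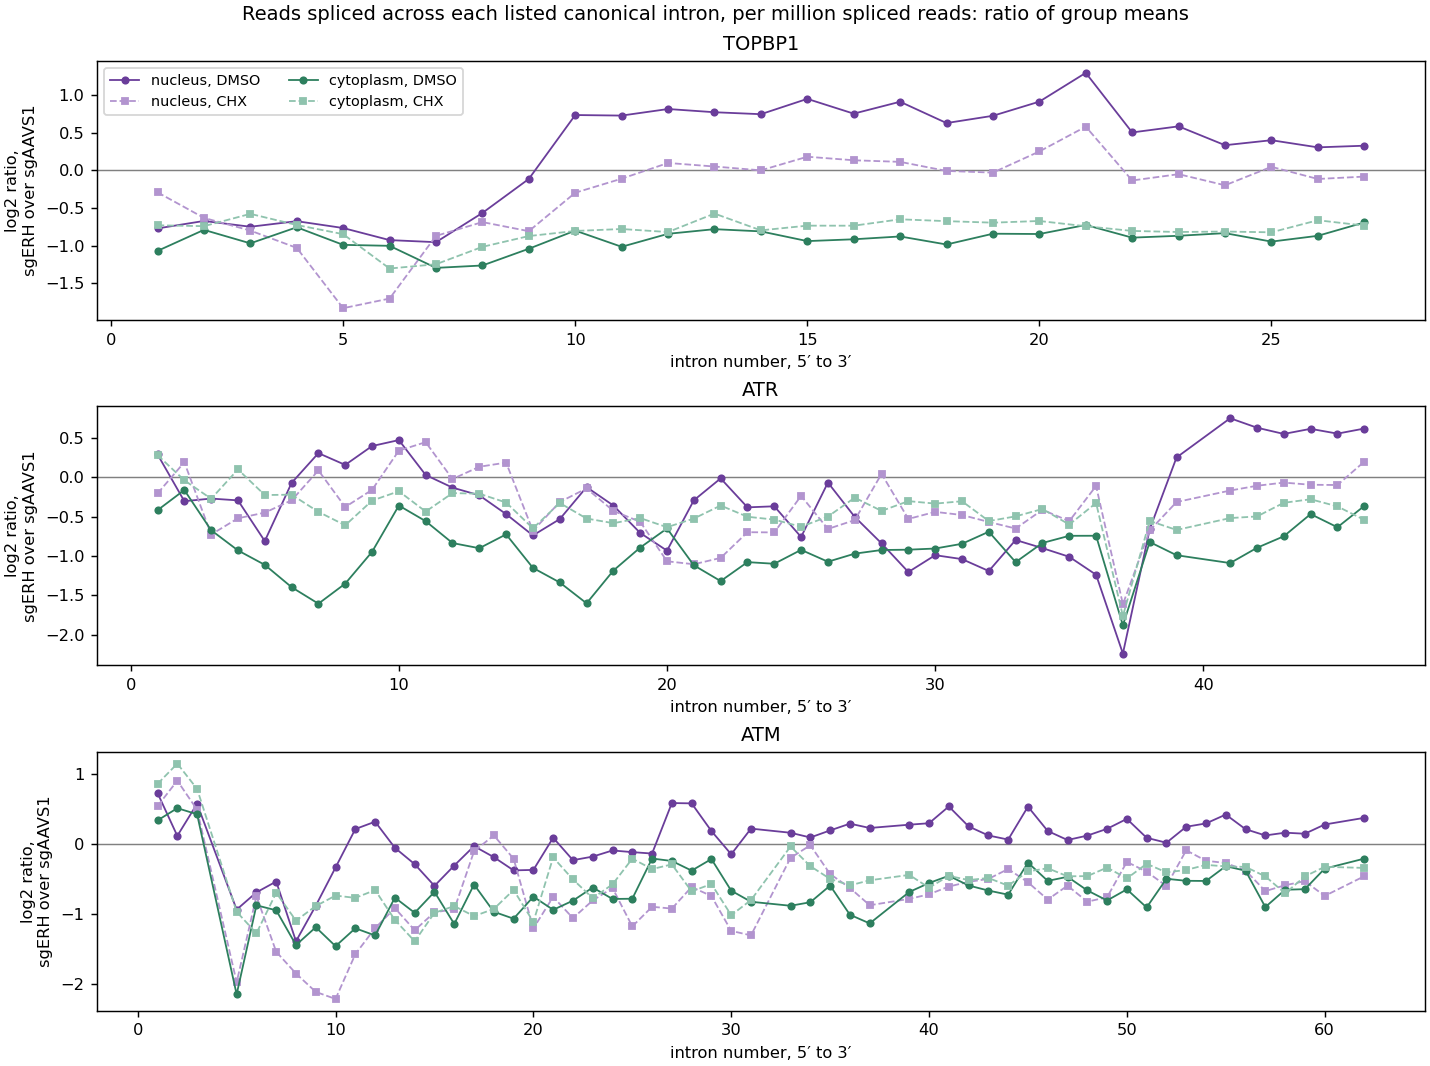
Log2 ratio of mean spliced reads per 1000000, sgERH over sgAAVS1, at each junction along TOPBP1, ATR and ATM, in 4 sets (DMSO and CHX, nucleus and cytoplasm, 3 libraries a group, no test). In DMSO nuclei TOPBP1 lies below 0 at junctions 1 to 9 and above it from 10 on (block medians −0.75 and 0.73), ATR lies below 0 at junctions 29 to 38 and above it from 39 on (−1.03 and 0.62) with 6 of junctions 1 to 28 also above, and in ATM only junctions 1 to 3 lie above 0 in all 4 sets.

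In ATM the 5′ end differed from the rest in cytoplasm and in CHX nuclei. Junctions 1 to 3, those of the short transcript ATM-246, had 1.23, 1.36 and 1.15 reads per 1000000 in sgERH cytoplasm under DMSO against 1.14, 0.872 and 0.777 in sgAAVS1, and under CHX 2.29, 2.29 and 1.99 in sgERH against 1.19, 1.04 and 1.23 in sgAAVS1. Junctions 5 to 16, which span the first run of retained introns, had 0.253, 0.174 and 0.249 in sgERH cytoplasm under DMSO against 0.444, 0.556 and 0.486 in sgAAVS1, lower at 12 of 12 (median log2 ratio −1.17). They were lower at 10 of 12 in DMSO nuclei and at 12 of 12 in both CHX fractions. Junctions 17 to 62 were lower in sgERH at all 43 listed in cytoplasm under DMSO and under CHX, and at 42 of 43 in CHX nuclei. In DMSO nuclei they were higher at 33 of 43 and lower at 10 (median log2 ratio 0.16). PRKDC had no such break, with all 85 junctions lower in sgERH in each of the 4 sets and medians from −1.07 to −0.58.

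Other genes of these pathways were taken from 6 lists of 52 genes (the 9-1-1 clamp and its loader, fork mediators, break sensors, cell cycle targets of the checkpoint, DNA-PK partners, and other PI3K-like kinases with their assembly factors). All 52 were tested. Of these, 3 were called lower in DMSO cytoplasm, against 2.16% of all genes, and 2 in CHX cytoplasm, against 1.43%. Medians over the 52 were −0.40 under DMSO and −0.38 under CHX, beside −0.79 and −0.66 for the 8 genes and 0.04 and 0.02 over all genes tested. In nuclei 2 were called lower under DMSO, against 1.73% of all genes, and 3 under CHX, against 3.68%. Medians were −0.23 and −0.14, beside −0.27 and −0.57 for the 8 genes and 0.03 and 0.01 over all genes. WDHD1, a fork protein that works beside the replicative helicase, had 23.02, 21.2 and 22.4 CPM in sgERH cytoplasm under DMSO against 86.7, 83.0 and 76.3 CPM in sgAAVS1 (−1.88). RAD50, a subunit of the break sensor that recruits ATM, had 22.1, 21.8 and 21.8 CPM in sgERH against 58.7, 58.5 and 57.8 CPM in sgAAVS1 (−1.41). The other calls were H2AX in DMSO cytoplasm (−1.11), MDC1, the reader of phosphorylated H2AX, in CHX nuclei (−1.22), and CDK1, the kinase that WEE1 phosphorylates, in DMSO (−1.07) and CHX nuclei (−1.13), with WDHD1 again in CHX cytoplasm (−1.09) and DMSO nuclei (−1.01) and RAD50 again in CHX cytoplasm (−1.14) and CHX nuclei (−1.06). The 8 DNA-PK partners, which join broken ends with PRKDC, had a median of 0.12 in DMSO cytoplasm and −0.33 in CHX cytoplasm. In nuclei their median was 0.06 under DMSO and 0.18 under CHX.

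Over the 8 group means, the protein-coding genes whose log2 CPM followed a member most closely among 10420 were CIB1 and TRNT1 for ATM (Pearson r 0.997 and 0.994), LYPLAL1 and ERCC2 for ATR (0.988 and 0.985), ZNF326 and CDK5RAP2 for ATRIP (0.994 and 0.992), and ZNHIT1 and HSPA4L for TOPBP1 (0.966 and 0.958). For CHEK1 they were STK39 and MICU2 (both 0.993), for CHEK2 EED and LIN9 (0.982 and 0.978), for PRKDC NDUFA10 and HADH (0.968 and 0.962), and for WEE1 PIGV and ZFP30 (0.994 and 0.986). The 8 points of each correlation share their fraction and treatment, and the highest of 10420 values is high in any case, so these names describe likeness of pattern and nothing more.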

How the data were processed

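The authors deposited, from salmon run within nf-core/rnaseq on Ensembl 110 (GRCh38), estimated counts, TPM and effective lengths per transcript, and from IRFinder-S, per library, the intron depth (a coverage signal), counts of spliced and exon-intron boundary reads, and the IR ratio, a fraction; the deposited ratio equalled depth over depth plus the larger spliced count within 0.001. Whether strand was used in counting transcripts is not stated. 0 columns of unmapped samples were present. Here counts were summed per gene, rounded, and tested with edgeR 4.0.16 (R 4.3.3): filterByExpr with a minimum count of 10, TMM scaling, the 12 libraries of a fraction in 1 fit with a coefficient per group, the quasi-likelihood test and Benjamini-Hochberg adjustment over all genes, transcripts or introns. Fraction differences used the 12 libraries of a treatment. For introns, rounded depth and spliced reads entered as paired columns of each library, and introns needed a mean of 10 for their sum and a group mean depth of 1. A call needed an adjusted p up to 0.05, an absolute log2 fold change of 1 and, for introns, an IR ratio of 0.05. Totals of 27849300 to 79450300 counts limit low values to counting precision, and depth over an intron is not a number of independent molecules. The tests were run on simulated counts with known changes first. DESeq2 1.42.0, other filters and scalings, boundary reads, a replicate block and the loss of each replicate were alternatives. All 8 genes were named, with transcripts at 10% or more of the gene or called, and the called introns with the 3 largest changes per gene in full. The members and lists were chosen with earlier results of these data known. Intron numbers, gene positions and sequences came from the GRCh38 reference annotation (GENCODE 44).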

Additional observations from a re-analysis of the deposited data

Results flagged for a closer look

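The effect of sgERH on RNA level differed between the fractions under DMSO, by a test of the difference itself (nucleus minus cytoplasm), for TOPBP1, by 1.65 on the log2 scale, and for ATR, by 1.22 (edgeR). TOPBP1 was higher in sgERH nuclei and lower in sgERH cytoplasm, and ATR was lower in sgERH cytoplasm while its nuclear groups overlapped.

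The effect of sgERH on nuclear retention differed between CHX and DMSO, by the same kind of test, at ATR introns 37 (−4.69), 38 (−3.59) and 36 (−2.24) and at TOPBP1 introns 8 (−3.31) and 7 (−1.99), the last of which is listed also as an alternative form with the same reads (−1.99). At each of them the larger sgERH effect was the one under DMSO. After centring on the median of all introns the call was left at ATR introns 37 and 38 only, and that at TOPBP1 intron 8 was also lost without sgAAVS1 DMSO replicate 2 (edgeR adjusted p = 0.0583).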

How the results depend on the processing

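Of the alternatives for the 8 genes' gene sums, 1142 values kept their direction and side of the threshold, 6 passed it newly, 1 no longer passed and 3 changed sign. The 3 are ATM with an offset for transcript length: 0.020 in DMSO cytoplasm, 0.30 in CHX cytoplasm and −0.74 for nucleus minus cytoplasm under CHX. Counts of called genes stayed within 1.5 times of the reported ones. Counts of introns over the whole table did not. In DMSO cytoplasm (906 called) they were 577 with a minimum IR ratio of 0.10, 522 from boundary reads, 168 without introns that carry a warning and 462 with DESeq2, and in CHX cytoplasm (431 called) 264, 259, 78 and 145. In DMSO nuclei (5778 called) boundary reads gave 3443, the warning filter 2783 and centring on the median, chosen after seeing the data, 2915 (2116 higher, 799 lower), and in CHX nuclei (25563 called) 14438, 9770 and 4059 (2914 higher, 1145 lower). For the CHX difference in nuclei (389 called) they gave 186, 139 and 28, and in cytoplasm (4 called) 29, 0 and 11, with 2 by DESeq2. Transcripts in CHX nuclei numbered 2885 when the 6 libraries compared were fitted alone, against 4611. Without 1 replicate, introns ranged over 599 to 780 in DMSO cytoplasm, 225 to 360 in CHX cytoplasm, 3042 to 4195 in DMSO nuclei, 18676 to 27590 in CHX nuclei, 72 to 878 for the CHX difference in nuclei and 0 to 1 in cytoplasm, and transcripts over 3217 to 3617, 1460 to 1735, 1408 to 1664 and 3139 to 4301 (4179, 2101, 2187 and 4611 with all). The causes of these shifts were not tested.

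The correlation of deviations of same-numbered libraries passed 0.1, the limit set for every pair, in 3 of 18 pairs in cytoplasm, 1 of 18 in nuclei and, across fractions, 1 of 6 under DMSO (0.03 to 0.135) and 2 of 6 under CHX, so no pairing was used. A library was closest to its own number in 9 of 12 cases in cytoplasm, 11 of 12 in nuclei and, across fractions, 12 of 12 under DMSO and 10 of 12 under CHX. The tests between fractions entered nucleus and cytoplasm as independent libraries. The replicate block was shared by both guides, so no fit paired the fractions of the same guide and number. With the replicate block crossed with read type, the CHX difference in nuclei gave 232 introns in place of 389, and the block moved no other count by over 1.5 times.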
